A study of Mus musculus with 62 samples.

Results

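The subject is 10 genes of the unfolded protein response and the integrated stress response in mouse white adipose tissue during melanoma-induced wasting. They are Hspa5, Hsp90b1, Pdia4, Dnajb9, Xbp1, Atf4, Ddit3, Trib3, Chac1 and Asns. They were chosen by name, as 10 of the 47643 gene symbols of a TPM table (a measure corrected for transcript length and scaled to a fixed sum per library). All 10 passed the filter on low values (0.5 TPM or more on average), as did 14577 genes in all. Of the 10, only the ER co-chaperone Dnajb9 was called higher in tissue of mice carrying cachectic melanoma cells over the 4 weeks combined. Of all genes tested, 10% were called against mock-injected mice and 11.2% against mice with non-cachectic cells. The share among the 10 genes is thus near the background. Both calls of Dnajb9 were lost under several alternative scalings and fits, and when some single weeks were left out. At 2 weeks its mean was 71.1 TPM with cachectic cells and 75.3 TPM in mock tissue. The other 9 were not called in any of the 20 comparisons made.

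The 62 libraries came from female mice 2 months old injected with melanoma cells of a cachectic kind (CAC) or a non-cachectic kind (NCAC), or mock-injected (Con). Tissue was taken 2, 4, 6 or 8 weeks later, which gives 12 groups of 5 libraries, with 7 for CAC at 8 weeks. The series' design text names the host as NCI Ath/nude, a strain that lacks mature T cells, whereas the strain tag of the samples is C57BL6/J, and the sources used here do not settle which holds. The tag for treatment gives the cachectic cells for all samples, also those described as mock or non-cachectic, so the arm, week and replicate number were taken from the sample descriptions. The melanoma lines are not named, the protocol also speaks of a time point 3 weeks after LLC cells that no sample bears, and it calls the replicates biological. Nothing used here says whether any libraries share an animal, so p-values measure the spread between these libraries.

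The endoplasmic reticulum (ER) folds secreted and membrane proteins, and adipocytes secrete hormones such as adiponectin in quantity. When unfolded proteins build up there, the sensor IRE1 splices the mRNA of Xbp1, ATF6 is cleaved and moves to the nucleus, and PERK phosphorylates the translation factor eIF2. PERK shares that last step with the kinases GCN2, PKR and HRI, which respond to amino acid shortage, double-stranded RNA and haem shortage. Together they form the integrated stress response, in which ATF4 is translated and switches on genes of amino acid supply and, through CHOP, of cell death. The splicing of Xbp1, the translation of Atf4 and the cleavage of ATF6 are not seen in gene-level TPM.

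The upstream sequences of 5 members are shown because the ER chaperone genes varied together across libraries, as did Chac1 with Trib3, and because Asns and Chac1, with the same element, had an r of -0.42 (-0.39 after median-ratio rescaling). Sequences are from RefSeq on GRCm38.p6, 5′ to 3′ on the gene's strand, and motifs were searched on both strands in the 250 bases before each RefSeq start, for which all 10 members had an entry. Capitals mark the fixed letters of a motif. For Hspa5 and Asns only 30 bases around the motif are shown, because a GENCODE transcript already starts upstream of it. The others run up to the first of the RefSeq and GENCODE starts.
Hspa5, chr2:34772020-34772049, plus strand: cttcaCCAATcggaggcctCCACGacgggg
Hsp90b1, chr10:86705510-86705694, minus strand: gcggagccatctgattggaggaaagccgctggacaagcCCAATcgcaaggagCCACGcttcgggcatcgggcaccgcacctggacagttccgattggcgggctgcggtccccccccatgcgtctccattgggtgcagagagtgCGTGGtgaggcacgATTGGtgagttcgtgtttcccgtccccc
Pdia4, chr6:47813513-47813762, minus strand: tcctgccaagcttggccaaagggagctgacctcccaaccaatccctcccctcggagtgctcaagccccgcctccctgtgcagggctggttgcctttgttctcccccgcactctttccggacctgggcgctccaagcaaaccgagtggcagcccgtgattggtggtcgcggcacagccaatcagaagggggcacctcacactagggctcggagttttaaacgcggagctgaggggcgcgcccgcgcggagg
Chac1, chr2:119350992-119351228, plus strand: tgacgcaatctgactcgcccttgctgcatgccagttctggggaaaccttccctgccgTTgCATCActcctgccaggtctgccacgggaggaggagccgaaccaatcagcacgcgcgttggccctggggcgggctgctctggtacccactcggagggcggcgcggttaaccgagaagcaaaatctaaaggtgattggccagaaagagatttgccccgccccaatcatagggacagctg
Asns, chr6:7693214-7693243, minus strand: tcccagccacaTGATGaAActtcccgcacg

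The ER stress response element, CCAAT and CCACG with 9 bases of any kind between them, which ATF6 and XBP1 can bind, matched 65 to 47 bases before the start of Hspa5. It matched at 2 places in Hsp90b1, 212 to 194 bases before the start and, on the other strand, 107 to 89 bases before it. These were 2 of 10 members, while 0.113% of 32851 promoters of the same length held a match, and no test of enrichment was run. Pdia4, which varied with these chaperones, held no match to this element. The CEBP-ATF response element TGATGNAA, to which ATF4 binds with C/EBP partners, matched 23 to 16 bases before the start of Asns and, on the other strand, 193 to 186 bases before that of Chac1, while 3.45% of all promoters held it. The letters ATTGG and CCACG with 1 base between them (ER stress response element II, in 0.0304% of promoters) and TGACGTGG (unfolded protein response element, in 0.563%) matched in 0 members. No motif overlapped another in a member's window, and a match is a description of the letters, not a bound site.

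By mean level over the 62 libraries the members fell in this order. The chaperones Hsp90b1 (248 TPM) and Hspa5 (239 TPM) were highest, with the transcription factors Xbp1 (201 TPM) and Atf4 (156 TPM) next. Asns (117 TPM), Dnajb9 (96.9 TPM) and Pdia4 (90.6 TPM) followed. Ddit3 (18.4 TPM), Trib3 (8.27 TPM) and Chac1 (7.92 TPM) were low. Group means of Hsp90b1, Hspa5, Ddit3 and Pdia4 differed by 1.24, 1.27, 1.25 and 1.29-fold between the lowest and the highest of the 12 groups. Those of Chac1 and Trib3 differed by 4.72 and 3.31-fold, both lowest in CAC tissue at 2 weeks. Chac1 also varied most within groups, with an SD of 0.96 on the log2(TPM + 1) scale, against 0.32 for Hsp90b1, the lowest of the 10.

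**Figure D1:**
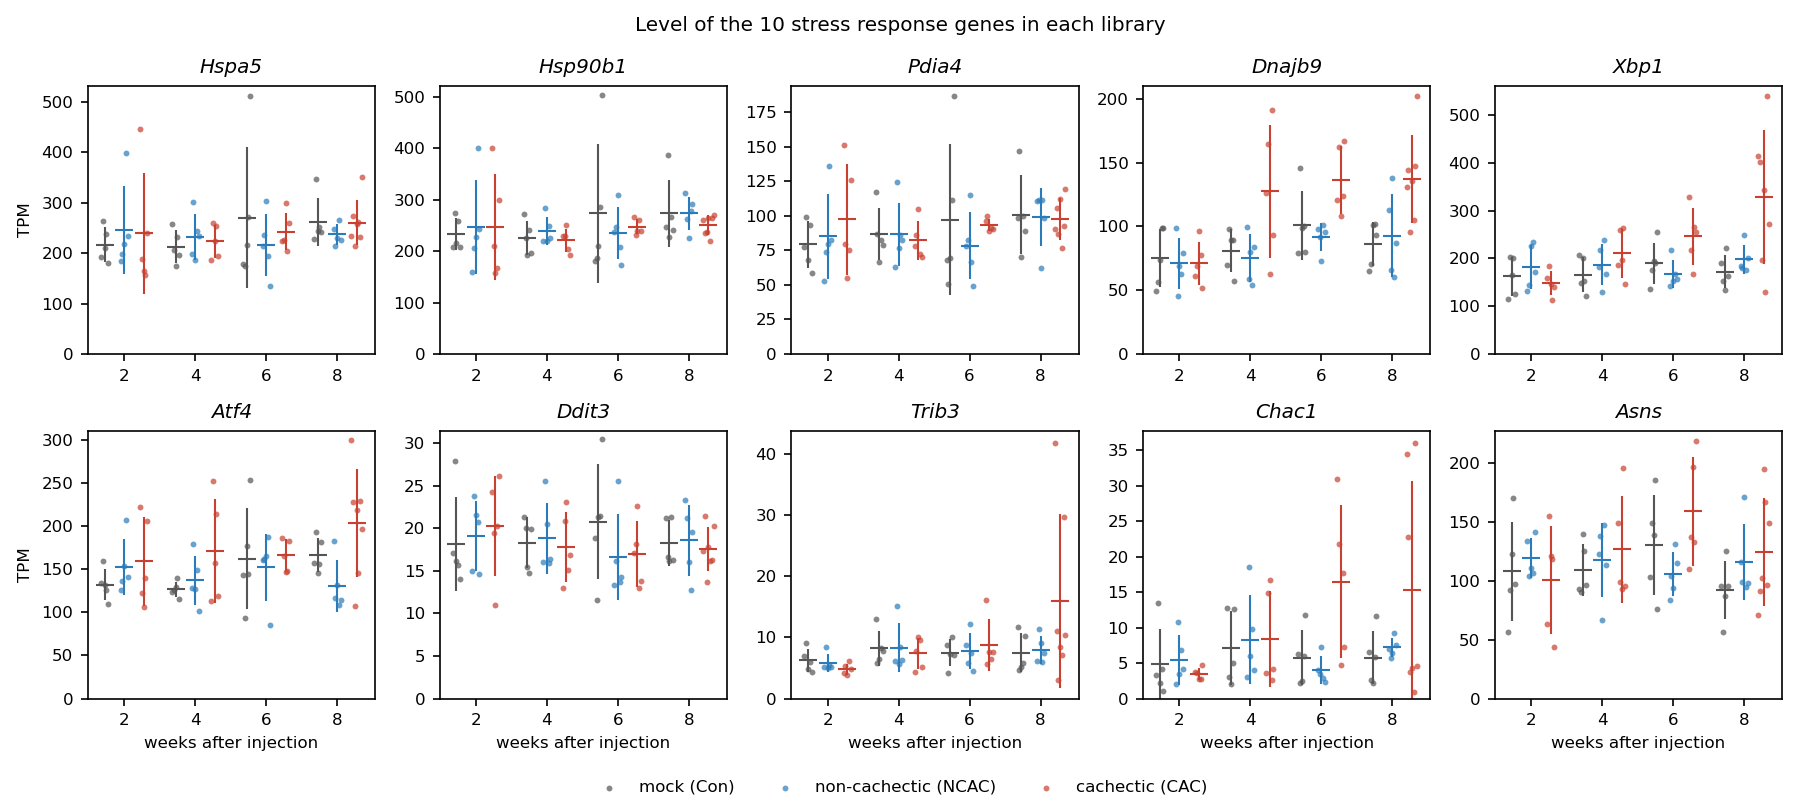
TPM (vertical axis, from 0) of the 10 genes against weeks after injection, with 1 point per library, horizontal marks for group means and vertical bars for 1 SD (n = 5, or 7 for CAC at 8 weeks; bars end at 0 where they would go below). The means of Dnajb9 and Xbp1 are highest in the CAC arm at 4, 6 and 8 weeks, Chac1 and Trib3 are high in a few CAC libraries, and Hspa5, Hsp90b1 and Pdia4 overlap throughout.

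Several features of the libraries bear on all results. Mitochondrially encoded genes took 17.2% to 44.4% of a library's TPM, and 11783 to 14470 genes reached 1 TPM. Without the read depth, values carry no counting interval. The 6 adipocyte markers reached high sums in every library, from 16390 to 51509 TPM, and the 4 T cell markers to at most 11.4 TPM. Urothelial markers passed 100 TPM in 16 libraries (11 CAC, 3 mock, 2 NCAC), and the 6 fibroblast and progenitor markers passed 2500 TPM in 5 (3 mock, 1 CAC, 1 NCAC). In bulk tissue, fewer cells of a type and less RNA per cell cannot be told apart.

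Dnajb9 encodes ERdj4, an ER co-chaperone of the J-domain family and a target of spliced XBP1 (chromosome 12, 44205559 to 44210326 on GRCm38). At 2 weeks it read 60.8, 69.1, 96.4, 77.4 and 51.8 TPM in the CAC libraries and 49.5, 56.2, 74.0, 98.4 and 98.5 TPM in the mock libraries. The ranges overlapped and neither arm was higher. At 4 weeks CAC tissue gave 126, 164, 62.4, 191 and 93.0 TPM, and mock tissue 70.1, 98.0, 89.3, 89.5 and 56.9 TPM. At that week 3 of 5 CAC libraries lay above all mock libraries.

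At 6 weeks Dnajb9 read 120.3, 162, 108, 124 and 167 TPM in CAC libraries, 79.4, 146, 99.0, 100.2 and 79.9 TPM in mock libraries and 97.6, 91.6, 72.9, 101 and 95.5 TPM in NCAC libraries. All 5 CAC libraries lay above all 5 NCAC libraries, and 2 of 5 above all mock libraries. At 8 weeks the 7 CAC libraries ran from 95.3 through a median of 136 to 202 TPM, and the mock libraries read 65.4, 70.4, 101, 102 and 93.4 TPM. Here 6 of 7 CAC libraries were above every mock library, and the lowest, replicate 3, lay within the mock range. The NCAC libraries of 8 weeks, at 113, 65.5, 138, 60.4 and 87.0 TPM, overlapped both other arms.

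Over the 4 weeks Dnajb9 averaged 119.7 ± 42.3 TPM in CAC tissue (SD, n = 22), 85.9 ± 22.0 TPM in mock tissue (n = 20) and 82.7 ± 22.5 TPM in NCAC tissue (n = 20). It rose in CAC against mock by 0.41 on the log2(TPM + 1) scale (SE 0.12, limma adjusted p = 0.0253), a 1.33-fold difference. It was 1 of 10 members called, while 10% of the 14577 genes tested were called in that comparison (614 higher and 844 lower, or 608 and 2289 with mitochondrially encoded genes left out, when the difference of Dnajb9 was 0.35 and its adjusted p 0.0845). Against NCAC it rose by 0.47 (SE 0.12, limma adjusted p = 0.0113), again as 1 of 10 members, where 11.2% of all genes were called. These shares lie near the background, so the counts say nothing particular about the 10 genes. CAC libraries are shared by both comparisons. Both calls were lost with median-ratio rescaling, at 0.44 against mock (limma adjusted p = 0.0839) and 0.43 against NCAC (0.0689).

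Within single weeks the one call was CAC against NCAC at 6 weeks, where Dnajb9 rose by 0.55 (SE 0.15, limma adjusted p = 0.0498) as 1 of 10 members, beside 5.78% of all genes. That call held when CAC replicate 3 was left out (limma adjusted p = 0.0346) and was lost when any of the other 9 libraries was left out (up to 0.113). At 6 weeks the median log2 change of all genes against NCAC was 0.13, and -0.02 with mitochondrially encoded genes left out of the scaling, which took the genes called from 720 higher and 123 lower to 332 and 336 and Dnajb9 to 0.37 (limma adjusted p = 0.231). Median-ratio rescaling gave 0.39 (0.274). Against mock the log2 change of Dnajb9 was -0.06 (SE 0.24) at 2 weeks, 0.57 (SE 0.28) at 4, 0.44 (SE 0.20) at 6 and 0.65 (SE 0.19, limma adjusted p = 0.0809) at 8 weeks, none of them called. From 2 to 8 weeks within the CAC arm the difference was 0.93 (SE 0.20, limma adjusted p = 0.0503), with 6 of 7 late libraries above all 5 early ones. The change of the CAC effect between 2 and 8 weeks was 0.71 (SE 0.30, limma adjusted p = 0.5195) and was not called.

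Fibroblast markers moved with the same arms. Their 6-gene sum had a median of 390 TPM in CAC tissue (182 to 2616 TPM), 1112 TPM in mock tissue (326 to 6020.1 TPM) and 993 TPM in NCAC tissue (197 to 2564 TPM), and 4 of 6 members (Dpt, Col1a1, Col3a1, Lum) fell in CAC against mock over all weeks. With this sum as a covariate, an alternative chosen after seeing the data, the difference of Dnajb9 was 0.07 against mock (limma adjusted p = 0.583) and 0.18 against NCAC (0.175). The median of all genes was 0.21 and 0.19 in those fits, against -0.02 and 0.04 without the covariate, so Dnajb9 lay at or below the bulk of genes there. Without the 5 libraries over 2500 TPM of these markers, also chosen after seeing the data, Dnajb9 kept its calls at 0.38 (limma adjusted p = 0.0457) and 0.50 (0.00721). Without the 16 libraries over 100 TPM of urothelial markers both calls were lost (0.178 and 0.182) while the differences were 0.42 and 0.41.

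Leaving out whole weeks also touched these calls. The call against mock was lost without week 4 (limma adjusted p = 0.0843), week 6 (0.151) or week 8 (0.368), with differences of 0.32 to 0.40, and against NCAC without week 4 (0.0517), 6 (0.132) or 8 (0.126). Of the 42 libraries left out in turn, leaving out mock replicate 1 of 8 weeks took the first call to an adjusted p of 0.0501, and none of the 42 ended the call against NCAC.

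Xbp1 encodes the transcription factor that IRE1 activates by splicing (chromosome 11, 5520659 to 5525893). At 8 weeks its 7 CAC libraries ran from 129 through a median of 344 to 539.9 TPM, and the mock libraries read 191, 152, 133, 223 and 164 TPM. Thus 5 of the 7 exceeded every mock library and 1, replicate 5, lay below them all. At 6 weeks CAC libraries read 328, 217, 167, 266 and 255 TPM and mock libraries 136, 176, 194, 189.6 and 255 TPM, with 3 of 5 CAC libraries above all mock ones.

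Xbp1 was not called in any comparison. Its log2 change in CAC against mock was 0.81 (SE 0.31, limma adjusted p = 0.153) at 8 weeks and 0.37 (SE 0.13, limma adjusted p = 0.0687; 95% interval 0.10 to 0.64) over all weeks, and against NCAC 0.27 (SE 0.13, limma adjusted p = 0.178) over all weeks. Between 2 and 8 weeks of the CAC arm it differed by 1.02 (SE 0.31, limma adjusted p = 0.134), with 6 of 7 late libraries above all early ones. In the comparison with mock over all weeks it passed the threshold when week 2 was left out (0.52, limma adjusted p = 0.0217), after median-ratio rescaling (0.040), in 1 fit of all 62 libraries (0.0411) and without any of 5 single libraries, of which CAC replicate 5 of 8 weeks gave the lowest adjusted p (0.0281). Median-ratio rescaling called 2963 genes in all and the 1 fit 1658, against 1458 in the main test.

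Hspa5 encodes BiP, the main Hsp70 chaperone of the ER, which also holds the stress sensors inactive (chromosome 2, 34771970 to 34777547). Hsp90b1 encodes GRP94, the ER form of Hsp90 (chromosome 10, 86690209 to 86705509), and Pdia4 encodes ERp72, a protein disulfide isomerase (chromosome 6, 47796141 to 47813430). At 8 weeks Hspa5 ran from 215 through 257 to 351 TPM in CAC libraries and read 227, 346, 244, 251 and 241 TPM in mock libraries. The groups overlapped, with 1 CAC library above and 1 below all mock ones.

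Over all weeks CAC tissue averaged 243 ± 63.1 TPM of Hspa5 (SD, n = 22) and mock tissue 240.3 ± 76.2 TPM (n = 20), so that the log2 scale showed 0.01 (SE 0.11, 95% interval -0.20 to 0.23, limma adjusted p = 0.960). The log2 change of Hsp90b1 was -0.04 (SE 0.10, 95% interval -0.24 to 0.16) and that of Pdia4 0.06 (SE 0.12, 95% interval -0.18 to 0.29). So differences of the size seen for Dnajb9 lay outside these 3 intervals. With the fibroblast marker sum as a covariate Pdia4 was higher in CAC tissue by 0.39 against mock (limma adjusted p = 0.00342) and by 0.38 against NCAC (0.0030), in fits whose median over all genes was itself 0.21 and 0.19.

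The 3 chaperones were high in the same few libraries. Mock replicate 5 of 6 weeks had the highest level of all 62 libraries for Hspa5 (511 TPM), Hsp90b1 (503 TPM) and Pdia4 (187 TPM), and also the lowest mitochondrial share (17.2%) and 4517 TPM of fibroblast markers. CAC replicate 1 of 2 weeks followed for Hspa5, with 445 TPM.

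Atf4 encodes the factor whose translation rises when eIF2 is phosphorylated (chromosome 15, 80255184 to 80257541). At 8 weeks it ran from 107 through 219 to 299.6 TPM in CAC libraries, against 157, 193, 145, 156 and 181 TPM in mock and 182, 116, 132, 108 and 114 TPM in NCAC libraries. Here 5 of 7 CAC libraries were above every mock library and 1 below, and the same counts held against NCAC. Over all weeks the log2 change of Atf4 was 0.23 against mock (SE 0.11, limma adjusted p = 0.208) and 0.28 against NCAC (SE 0.12, limma adjusted p = 0.129). It passed the threshold against mock after median-ratio rescaling (0.26, limma adjusted p = 0.035), and against both arms with the fibroblast covariate (0.36, 0.0208 and 0.35, 0.0411). Median-ratio rescaling called 2963 of 14577 genes against mock. The covariate fits called 6474 and 5745 genes, with medians over all genes of 0.21 and 0.19.

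Ddit3 encodes CHOP, the transcription factor tied to cell death under prolonged ER stress, and its symbol has 2 overlapping GENCODE entries on chromosome 10 (127290774 to 127296288 and 127290829 to 127293753), so its level is uncertain to that extent. It lay between 11 and 30.5 TPM in all libraries. Over all weeks it averaged 18.1 ± 4.02 TPM in CAC (SD, n = 22), 18.9 ± 4.55 in mock (n = 20) and 18.3 ± 4.18 in NCAC tissue (n = 20). The log2 change against mock was -0.06 (SE 0.10, 95% interval -0.26 to 0.15).

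Chac1 encodes a glutathione-degrading enzyme downstream of ATF4 (chromosome 2, 119351229 to 119354381), and Trib3 encodes a pseudokinase that ATF4 and CHOP induce and that restrains Akt (chromosome 2, 152337422 to 152344032). At 8 weeks Chac1 ran from 0.932 through a median of 4.53 to 36.0 TPM in CAC libraries, and it read 6.57, 2.69, 2.18, 5.81 and 11.6 TPM in mock libraries. Replicates 1, 2 and 6, at 34.5, 22.8 and 36.0 TPM, were above all mock libraries, 3 others were within their range and replicate 5 was below it. Trib3 was highest in 2 of the same 3 libraries, at 41.8 TPM in replicate 1 and 29.6 TPM in replicate 6, while replicate 2 had 11.1 TPM and mock libraries read 11.6, 4.61, 5.23, 5.88 and 10.2 TPM. Replicate 1 also had the highest sum of 3 endothelial markers of all 62 libraries (427 TPM, against a median of 229.6 TPM in its group), and replicates 1 and 6 had the lowest mitochondrial shares of the group (21.1% and 24.1%). Over all libraries, from group means, the endothelial sum had r = 0.60 with Chac1 (rho 0.54, permutation adjusted p = 0.000318 and 0.00067, 0.52 without 2 libraries) and 0.58 with Trib3 (rho 0.43, permutation adjusted p = 0.00194 and 0.011, 0.50 without 2), and in the CAC arm 0.82 and 0.73. In the mock arm these r were 0.48 and 0.59, and in the NCAC arm 0.05 and 0.06. Over all libraries r was 0.02 and 0.40 after median-ratio rescaling. Other measures also moved with Chac1. In the CAC, mock and NCAC arms its r was 0.56, 0.57 and 0.62 with the macrophage marker sum. With the mitochondrial share it was -0.62, -0.56 and -0.76. The part of endothelial RNA in these levels was not tested.

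At 6 weeks Chac1 read 31.0, 21.8, 4.73, 17.7 and 7.31 TPM in CAC libraries, 6.34, 2.16, 2.53, 6.04 and 11.7 TPM in mock and 4.05, 3.54, 7.31, 2.91 and 2.33 TPM in NCAC libraries. So 3 of 5 CAC libraries lay above all of either other arm. The log2 change at 6 weeks was 1.61 against NCAC (SE 0.45, limma adjusted p = 0.0644) and 1.29 against mock (SE 0.51, limma adjusted p = 0.445), and neither was called. Against NCAC it passed the threshold without CAC replicate 3 (1.94, limma adjusted p = 0.0229) or NCAC replicate 3 (1.81, 0.0419). At 8 weeks the log2 change against mock was 0.71 (SE 0.72) for Chac1 and 0.66 (SE 0.50) for Trib3.

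Asns encodes asparagine synthetase, an ATF4 target of amino acid supply (chromosome 6, 7675169 to 7693254). At 6 weeks it read 109.9, 137, 197, 133 and 219 TPM in CAC libraries and 83.8, 104, 93.5, 131 and 115 TPM in NCAC libraries, with 4 of 5 CAC libraries above all NCAC ones. The difference was 0.56 log2 units (SE 0.20, limma adjusted p = 0.107). Mock libraries of that week, at 103, 149, 138, 185 and 75.6 TPM, overlapped both. At 8 weeks Asns was at 70.8 and 96.0 TPM in CAC replicates 1 and 6, the libraries with the highest Chac1 and Trib3.

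**Figure D2:**
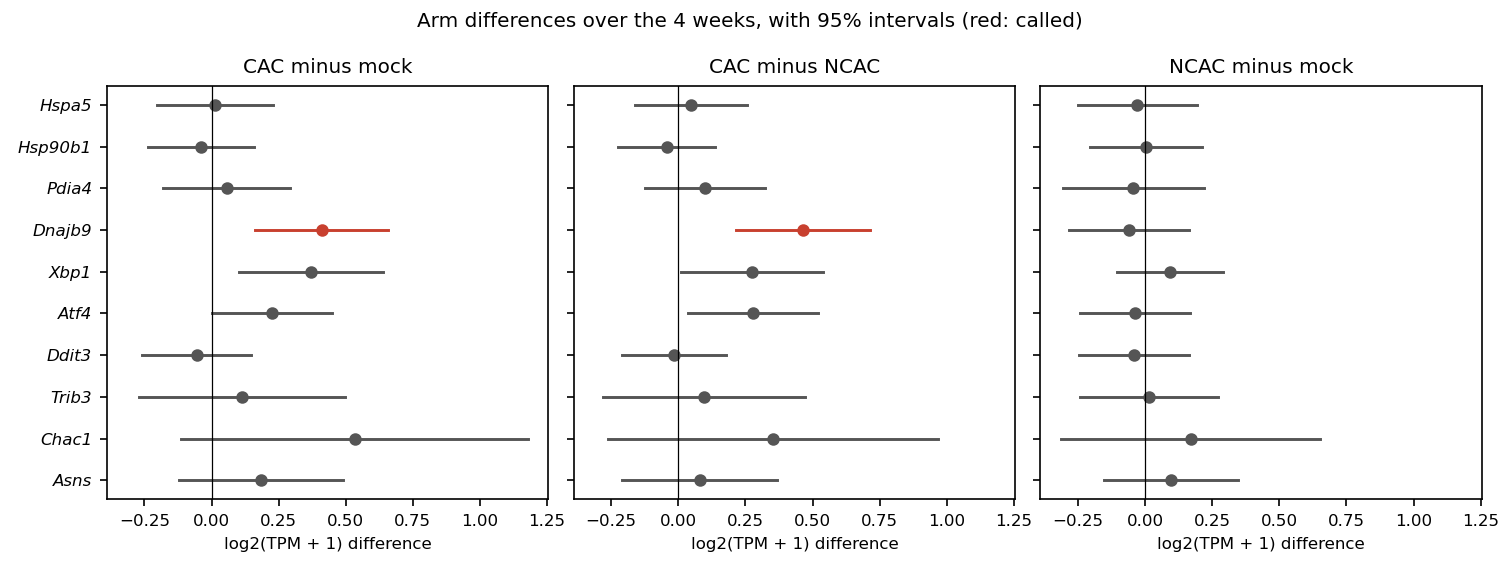
Difference between arms over the 4 weeks for each gene, on the log2(TPM + 1) scale (horizontal axis), with 95% intervals from limma and the 3 comparisons side by side. Dnajb9 alone is called, at 0.41 against mock and 0.47 against NCAC, and the intervals of Chac1 are the widest.

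The remaining comparisons called none of the 10 members. In CAC against mock, limma called 0 of 10 at 2 weeks (0.00686% of all genes called), at 4 weeks (0.00686%), at 6 weeks (0.357%) and at 8 weeks (3.07%). There 0, 0, 2 and 2 members had an unadjusted p under 0.05, beside 503, 405, 1377 and 2999 of the 14571 to 14577 genes tested. In CAC against NCAC it called 0 of 10 at 2 and 4 weeks (0% of all genes each) and at 8 weeks (0.528%). Under 0.05 unadjusted were 0, 1 and 2 members, beside 528, 648 and 2342 of all genes. In NCAC against mock, limma called 0 genes and so 0 members at 2, 4, 6 and 8 weeks and over all weeks (0% each, with 234, 115, 205, 181 and 442 genes under 0.05 unadjusted), with 0, 0, 0, 1 and 0 members under 0.05 unadjusted. The 1 was Atf4 at 8 weeks, at -0.37 on the log2 scale (SE 0.16). Comparisons of a week share their groups, so their results are not independent of each other.

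Over time, limma called 0 of 10 members between 2 and 8 weeks in mock tissue (0% of all genes), in CAC tissue (0.796%) and in NCAC tissue (0%). Under 0.05 unadjusted were 1, 3 and 0 members, beside 564, 2207 and 709 of all genes. The CAC members under 0.05 were Dnajb9, Xbp1 and Trib3, the last at 1.15 log2 units (SE 0.48, limma adjusted p = 0.280). For the CAC effect at 8 weeks set against that at 2 and at 6 weeks, 0 of 10 were called (0.0549% and 0% of all genes). Here 2 and 0 members were under 0.05 unadjusted, beside 1362 and 116 of all genes. The median log2 change of the 10 members in CAC against mock was 0.31 at 8 weeks and 0.15 over all weeks, and that of all tested genes -0.08 and -0.02.

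The wider pathway was read from 4 lists of 77 genes, of which 75 were tested. Among 24 genes of ER folding and degradation, 1 fell and 0 rose in CAC against mock over all weeks, beside 10% of all genes called. It was Edem1, a lectin that hands misfolded glycoproteins to degradation, with 27.3 ± 3.42 TPM in CAC (SD, n = 22) and 37.6 ± 10.1 TPM in mock tissue (n = 20). On the log2 scale it fell by 0.41 (SE 0.09, limma adjusted p = 0.00357), and by 0.40 against NCAC (SE 0.09, limma adjusted p = 0.0045). Both calls of Edem1 held without each of 42 libraries, and both were lost without week 8 (0.115 and 0.0883) and without the urothelial libraries (0.073 and 0.136). The call against mock was also lost with the fibroblast covariate (-0.19, 0.0811). The list's median log2 change was -0.02, and that of all genes also -0.02.

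Among 26 tested targets of ATF4 and CHOP, 1 rose and 2 fell over all weeks in CAC against mock, and likewise against NCAC. With 10% and 11.2% of all genes called, in both directions, 3 of 26 lies near the background and says nothing particular about the list. Ddit4, the mTORC1 inhibitor REDD1, which glucocorticoids also induce, rose by 1.14 (SE 0.35, limma adjusted p = 0.0327) against mock and by 1.05 (SE 0.34, limma adjusted p = 0.0391) against NCAC. At 6 weeks Ddit4 rose against NCAC by 1.67 (SE 0.41, limma adjusted p = 0.0414), with 5 of 5 CAC libraries above all NCAC libraries. Phgdh, the first enzyme of serine synthesis, fell by 0.69 against mock (SE 0.22, limma adjusted p = 0.0341) and by 0.97 against NCAC (SE 0.21, limma adjusted p = 0.00199). Stc2, a secreted glycoprotein induced by ER stress, fell by 0.70 (SE 0.21, limma adjusted p = 0.0284) and 0.64 (SE 0.20, limma adjusted p = 0.0329).

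At 8 weeks 1 of the 26 rose and 2 fell in CAC against mock, where 3.07% of all genes were called (158 higher and 290 lower). Cth, which makes cysteine from cystathionine, averaged 25.0 ± 6.00 TPM in CAC (SD, n = 7) and 12.3 ± 3.92 TPM in mock tissue (n = 5), a rise of 0.99 (SE 0.23, limma adjusted p = 0.0399). Stc2 fell by 1.5 (SE 0.35, limma adjusted p = 0.0373) and Vldlr, a lipoprotein receptor, fell by 1.22 (SE 0.27, limma adjusted p = 0.0322), and all 7 CAC values of Vldlr were lower than the lowest mock value. Against NCAC at 8 weeks Phgdh fell by 2.04 (SE 0.39, limma adjusted p = 0.0411), from 119.9 ± 35.4 TPM (n = 5) to 32.4 ± 19.1 TPM (n = 7), and 7 of 7 CAC libraries were below all NCAC libraries. Phgdh also fell between 2 and 8 weeks within the CAC arm, by 1.84 (SE 0.39, limma adjusted p = 0.0491).

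These calls rested on single libraries to a different degree. Of 42 libraries left out in turn, leaving out 0 ended the call of Phgdh against NCAC over all weeks, 10 that against mock, 5 and 15 those of Ddit4 against mock and NCAC, and 1 (mock replicate 2 of 8 weeks, adjusted p = 0.055) and 6 those of Stc2. At 8 weeks, of 12 libraries, leaving out 9 ended the call of Cth, 8 that of Stc2, 6 that of Vldlr and 9 that of Phgdh against NCAC, and 10 of 12 ended that of Phgdh over time in the CAC arm. At 6 weeks 8 of 10 ended that of Ddit4. Without the 16 libraries over 100 TPM of urothelial markers the calls of Ddit4, Stc2 and Phgdh against mock over all weeks were lost (limma adjusted p = 0.245, 0.147 and 0.148), as were those of Ddit4 and Stc2 against NCAC (0.202 and 0.214), while Phgdh kept its call against NCAC (0.0217). All the single-week calls named above, and that of Phgdh over time, were lost without them. Without week 8 the 3 genes were called against neither arm (0.425, 0.55 and 0.297 against mock, 0.281, 0.263 and 0.122 against NCAC). Without week 6 those of Ddit4 and Stc2 were lost against both (0.188 and 0.132, 0.323 and 0.241) and that of Phgdh against mock (0.178). The fibroblast covariate took Stc2 at 8 weeks to -0.25, Vldlr to -0.29 and Cth to 0.56, and called 0 of all genes in that week.

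In CAC against mock, 0 of 13 stress sensor and eIF2 control genes (median log2 change 0.03 over all weeks) and 0 of 12 cytosolic heat shock genes (-0.01) were called in any week or over all weeks. Unadjusted, 1 gene of each list had a p under 0.05 over all weeks, beside 3443 of 14577 genes. Ern1, which encodes IRE1, had a mean of 9.58 TPM (CAC) and 8.28 TPM (mock), a difference of 0.13 on the log2 scale (SE 0.15). Hyou1, Creld2 and Manf, ER chaperone or secreted ER stress genes, were not called in any comparison either.

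Across the 62 libraries, after the mean of each group was subtracted, 33 of the 45 pairs of members passed an adjusted permutation p of 0.05 for r, 25 with a positive and 8 with a negative r. All values are shares of a fixed sum, so the libraries' scaling is common to both genes of a pair. Of 140 pairs of a member with a marker sum or the mitochondrial share, 71 passed as well. The share passing among pairs of other genes was not tested. The count of 33 therefore cannot be read as particular to these genes. Hsp90b1 and Pdia4 had a Pearson r of 0.92 and a Spearman rho of 0.90, each with a within-group permutation p of 1e-05, the smallest that 100000 resamples can give (adjusted 7.5e-05 over 45 pairs). The r was 0.91 without the 2 libraries of most extreme Hsp90b1, and 0.90, 0.95 and 0.92 within the CAC, mock and NCAC arms. Hspa5 and Hsp90b1 followed with r = 0.88 (rho 0.77, permutation p = 1e-05 for both, 0.83 without 2 libraries). Trib3 and Chac1, the low and variable targets of ATF4, had r = 0.69 (rho 0.64, permutation p = 1e-05 for both, 0.67 without 2 libraries) and 0.68, 0.75 and 0.68 within the arms. Some pairs of a chaperone and an ATF4 branch gene were also correlated. Pdia4 and Ddit3 had r = 0.66 (rho 0.59, 0.64 without 2 libraries), Hspa5 and Atf4 0.63 (rho 0.58, 0.57 without 2) and Pdia4 and Chac1 0.45 (rho 0.52, 0.43 without 2), with adjusted permutation p of at most 0.000225. The last pair had 0.27, 0.57 and 0.67 within the CAC, mock and NCAC arms. Other such pairs were not correlated or went the other way. Trib3 had r = 0.14 with Hspa5 and 0.15 with Hsp90b1 (permutation adjusted p = 0.262 and 0.145). Asns had -0.18 with Hspa5, -0.37 with Hsp90b1 and -0.37 with Pdia4 (permutation adjusted p = 0.302, 0.0222 and 0.0178).

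The r of Dnajb9 with the 3 chaperones was below 0, but with Hspa5 and Hsp90b1 it turned to 0.30 and 0.23 after median-ratio rescaling. It was -0.18 with Hspa5 (rho -0.12, permutation adjusted p = 0.198 and 0.425, -0.13 without 2 libraries) and -0.31 with Hsp90b1 (rho -0.25, permutation adjusted p = 0.0257 and 0.0846, -0.30 without 2). Its r with Pdia4 was -0.43 (rho -0.36, permutation adjusted p = 0.00166 and 0.0158), and -0.41 without 2 libraries. With Xbp1, the factor that induces it, r was 0.20 (rho 0.13, permutation adjusted p = 0.180 and 0.388, 0.18 without 2 libraries). With Asns it was 0.46 (rho 0.44, permutation adjusted p = 0.00178 and 0.00344, 0.42 without 2 libraries). Median-ratio rescaling changed the values with Pdia4, Xbp1 and Asns to -0.18, 0.57 and 0.76, and those of Hsp90b1 with Pdia4 and of Trib3 with Chac1 to 0.73 and 0.52. Asns and Chac1, both targets of ATF4 with the same element, had r = -0.42 (rho -0.44, permutation adjusted p = 0.00479 and 0.00344, -0.45 without 2 libraries), with -0.66 in the CAC arm and -0.16 and -0.09 in the mock and NCAC arms.

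**Figure D3:**
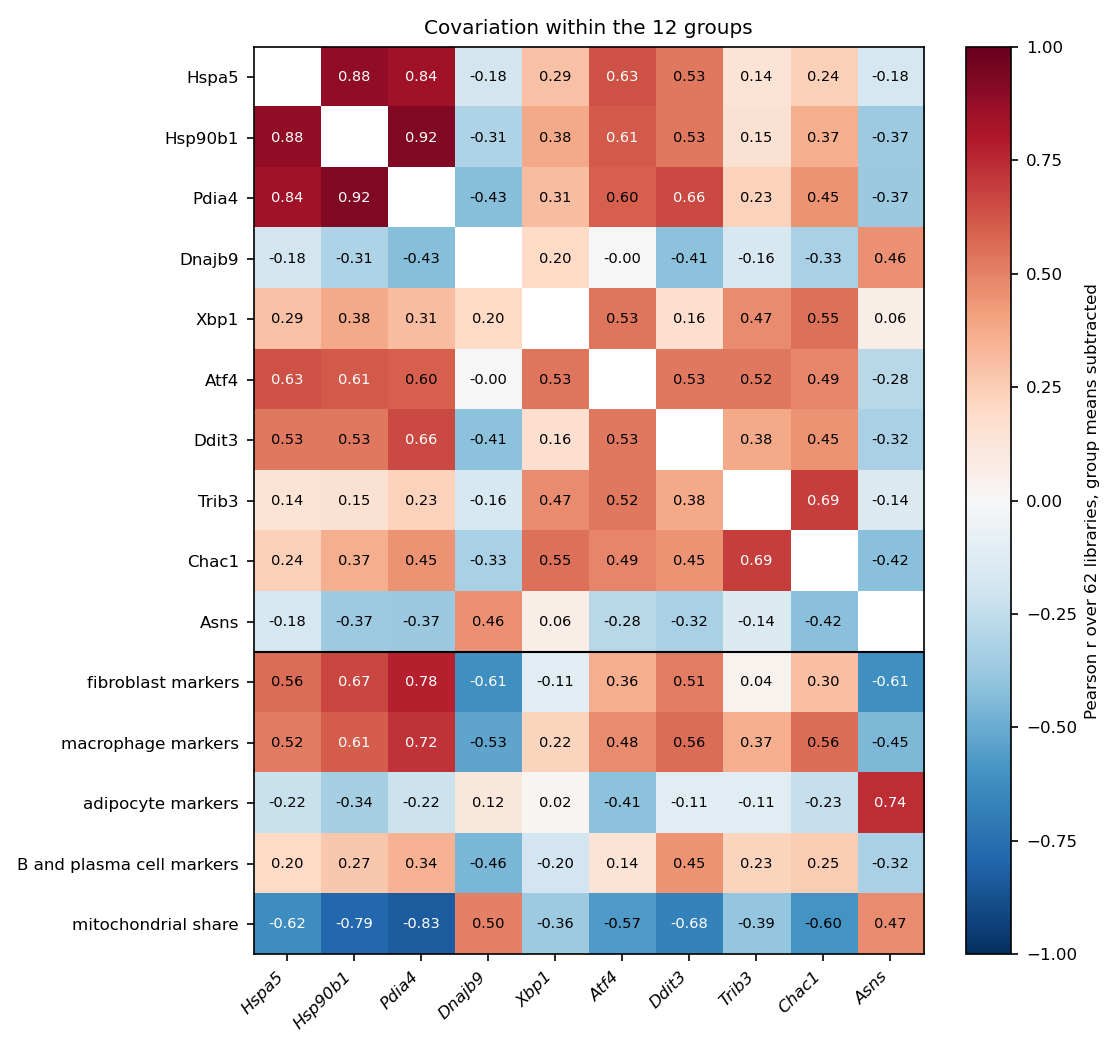
Pearson r over 62 libraries of log2(TPM + 1) after subtraction of group means, for pairs of members (upper block) and for members with summed markers or the mitochondrial share (lower rows, colour scale from -1 to 1). Hspa5, Hsp90b1 and Pdia4 form a block of 0.84 to 0.92, while Dnajb9 and Asns have the opposite sign to Pdia4 against fibroblast markers.

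Cell markers moved with the members inside groups, and their part in the differences between arms was tested only by the covariate and left-out libraries given above. With the fibroblast marker sum, r was 0.78 for Pdia4 (rho 0.71, 0.73 without 2 libraries), -0.61 for Dnajb9 (rho -0.58, -0.59 without 2) and -0.61 for Asns (rho -0.57, -0.56 without 2), each with an adjusted permutation p of 0.000108 for r and at most 0.000175 for rho among 140 pairs. Within the arms r for Dnajb9 was -0.73 (CAC), -0.60 (mock) and -0.53 (NCAC), and for Pdia4 0.68, 0.77 and 0.85. The macrophage marker sum had r of -0.34, -0.61 and -0.69 with Dnajb9 in the same order. Its r was 0.36, 0.82 and 0.91 with Pdia4 and -0.38, -0.54 and -0.50 with Asns. The relation was thus not particular to fibroblast markers, and no other marker sum was used as a covariate. The mitochondrial share had r = -0.83 with Pdia4 (rho -0.79, -0.81 without 2) and 0.50 with Dnajb9 (rho 0.48, 0.48 without 2, permutation adjusted p = 0.000318 and 0.00202), and the adipocyte marker sum 0.74 with Asns (rho 0.68, 0.68 without 2). The mitochondrial share and a gene's TPM are parts of the same fixed sum, so part of a negative r between them is built in. After median-ratio rescaling the r with fibroblast markers was 0.41 for Pdia4, -0.70 for Dnajb9 and -0.63 for Asns.

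**Figure D4:**
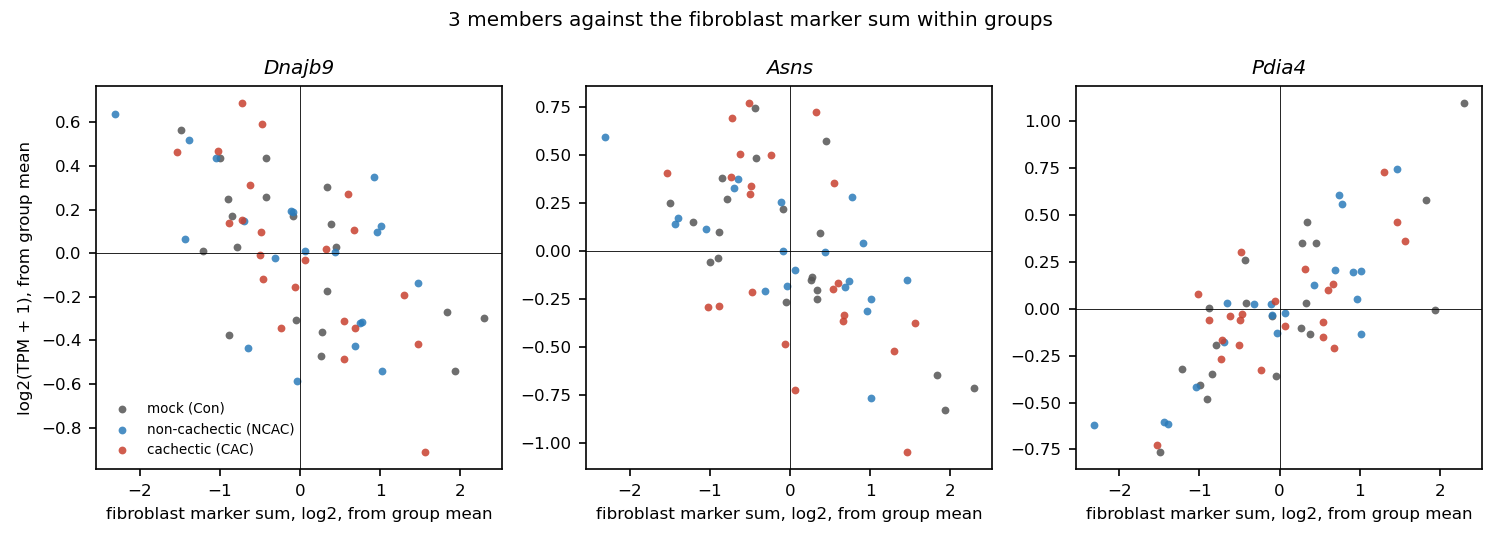
Level of Dnajb9, Asns and Pdia4 in 62 libraries (log2(TPM + 1), vertical axis) against the log2 sum of 6 fibroblast markers (horizontal axis), both as distance from the group mean and coloured by arm. Dnajb9 and Asns are lower where fibroblast markers are higher (r of -0.61 each) and Pdia4 is higher (0.78).

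The genes most like 4 of the members, by the same group-centred r over 62 libraries among 9729 genes averaging 5 TPM or more, were as follows. Hspa5 was followed by Hyou1 (0.95), Manf (0.92), Dnajb11 (0.89), Creld2 (0.89) and Hsp90b1 (0.88), of which Hyou1, Dnajb11 and Hsp90b1 encode ER chaperones. Xbp1 was followed by Sra1 (0.83), Vimp (0.82), Mpp1 (0.77), Rars2 (0.77) and Cirh1a (0.75), and Vimp encodes a selenoprotein of the ER membrane. Atf4 was followed by the co-chaperone Bag3 (0.90) and by Kti12 (0.88), Jmjd6 (0.88), Mak16 (0.87) and Nol9 (0.86). Asns was followed by Acad11 (0.80), Nadk (0.80), Ces1d (0.80), Ivd (0.78) and Gstz1 (0.78), where Acad11 and Ivd are acyl-CoA dehydrogenases and Ces1d is a carboxylesterase and lipase.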

How the data were processed

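RNA of white adipose tissue was sequenced after Trizol extraction, TruSeq stranded mRNA preparation and NovaSeq sequencing, per the labels' protocols. The authors deposited TPM values (47643 symbols, 62 libraries, every library with the same sum). Per the submitters' processing notes the build was mm10. For the aligner, counter, annotation and read depth the finding is: not given in the sources used here, so the precision that depth sets is unknown.

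The values were taken as log2(TPM + 1) and tested with limma 3.58.1 in R 4.3.3 (empirical Bayes with trend and robust settings), on the groups compared, with week as a factor over all weeks. Genes averaging 0.5 TPM or more over the 62 libraries were tested, p-values were adjusted by Benjamini-Hochberg over all of them, and an adjusted p under 0.05 was a call. On simulated data for CAC against mock at 8 weeks (14577 genes) 70 of 100 genes changed by 1 on the log2 scale and 95 of 100 changed by 2 were recovered. There 6 unchanged genes were called. The simulated noise was independent between genes, genes of low level were left unchanged, and all CAC libraries changed alike. These rates therefore need not hold for correlated genes, low genes or changes in a few libraries. Correlations used 100000 permutations within groups.

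The 10 members, the gene lists and the tests were chosen with earlier results of these data known. Named genes are the 10 members, per list and comparison up to 3 called genes with the largest rise and fall, and the 5 genes most like Hspa5, Xbp1, Atf4 and Asns. The alternatives were other pseudocounts, filters, scalings and fits, a replicate block, and libraries or weeks left out. The fibroblast alternatives were chosen after seeing the data. Coordinates are from GENCODE on GRCm38, the assembly of mm10. No sample was left out of the main tests.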

Additional observations from a re-analysis of the deposited data

Results flagged for a closer look

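In 14 of 120 gene-by-group sets of 5 or 7 libraries, 1 library stood apart from the others by Dixon's test at the 95% level. The test was run on TPM without the log step. Its rate of about 1 in 20 sets by chance holds for normally distributed values. Sets of correlated genes are also not independent, so the 14 cannot be set against that rate. Hspa5 was set apart at 445 TPM in CAC replicate 1 of 2 weeks (next 239 TPM), at 351 TPM in CAC replicate 7 of 8 weeks (273 TPM), at 346 TPM in mock replicate 2 of 8 weeks (251 TPM) and at 398 TPM in NCAC replicate 4 of 2 weeks (233 TPM). Hsp90b1 was high in the same mock library of 8 weeks, at 387 TPM (266 TPM), which had the highest fibroblast marker sum of all libraries, at 6020.1 TPM. NCAC replicate 4 of 2 weeks was also among the 5 libraries over 2500 TPM of these markers. Their part in these levels was not tested.

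Pdia4 was low at 62.6 TPM in NCAC replicate 3 of 8 weeks (next 98.6 TPM), the library in which Asns was high at 170.9 TPM (116 TPM). Atf4 was low at 85.6 TPM in NCAC replicate 5 of 6 weeks (160.5 TPM). Mock replicate 2 of 2 weeks was high in Chac1 at 13.4 TPM (4.21 TPM) and in Ddit3 at 27.9 TPM (17.1 TPM), and Ddit3 was high at 25.5 TPM in NCAC replicate 3 of 6 weeks (16.2 TPM). Trib3 was high at 16.1 TPM in CAC replicate 1 of 6 weeks (7.67 TPM), at 8.41 TPM in NCAC replicate 2 of 2 weeks (5.47 TPM) and at 15.2 TPM in NCAC replicate 2 of 4 weeks (8.37 TPM).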

How the results depend on the processing

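Dnajb9 kept its direction against mock and against NCAC over all weeks in all 58 alternatives of each. Most of these left out only 1 library and so shared nearly all their data with the main fit. In several of the others its calls were lost. The number of members called over all weeks in CAC against mock was 1, and it was 0 with mitochondrially encoded genes left out, without the urothelial libraries, with the replicate block and without week 4, 6 or 8, and 2 with median-ratio rescaling (Xbp1 and Atf4, with Dnajb9 lost), the fibroblast covariate (Pdia4 and Atf4, with Dnajb9 lost), all 62 libraries in 1 fit and without week 2 (Dnajb9 and Xbp1 in both). Against NCAC it was 1, and 0 with median-ratio rescaling, without the urothelial libraries, with the block and without week 4, 6 or 8, and 2 with library weights (Dnajb9 and Asns), the covariate (Pdia4 and Atf4, with Dnajb9 lost) and without week 2 (Dnajb9 and Xbp1). Against NCAC at 6 weeks it was 1, and 0 with a pseudocount of 5, no filter, mitochondrially encoded genes left out, all libraries in 1 fit, no urothelial libraries and the covariate, and 3 with library weights. Where 0 members were called, CAC against mock gave 4 (library weights) and 1 (covariate) at 6 weeks and 1 at 8 weeks (median-ratio, 1 fit, weights). CAC against NCAC at 8 weeks gave 3 (weights). CAC at 8 against 2 weeks gave 1 (pseudocount 0.1, filter at 2 TPM), 3 (1 fit) and 5 (weights). The CAC effect at 8 against 2 weeks gave 2 (weights). All genes called moved likewise. At 6 weeks weights called 2758 against mock and 3307 against NCAC, and the covariate 2005 against mock. At 8 weeks they were 1452 (median-ratio), 986 (1 fit) and 1462 (weights) against mock and 3061 (weights) against NCAC. CAC at 8 against 2 weeks gave 150, 135, 1497 and 2241 in the order above, and the CAC effect 777. Over all weeks the covariate called 6474 against mock and 5745 against NCAC. The member counts are to be read beside these. With 1 library left out the members called ran from 0 to 3 for CAC against NCAC at 6 weeks, from 0 to 1 for CAC against mock at 8 weeks, from 0 to 2 over all weeks and from 0 to 1 for CAC at 8 against 2 weeks. Hsp90b1 in CAC against mock at 6 weeks was -0.03 and changed to 0.38 (limma adjusted p = 0.0461) with library weights. The cause of these changes was not tested.

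Pathway genes called over all weeks in CAC against mock were 4, and 10 with mitochondrially encoded genes left out or library weights, 9 with median-ratio rescaling, 33 with the covariate, 1 with the block or without week 6, and 0 without the urothelial libraries or week 8. All genes called moved likewise, from 1458 to 2897 (mitochondrially encoded genes left out), 3106 (weights), 2963 (median-ratio), 6474 (covariate), 740 (block) and 273 (no urothelial libraries), so the pathway counts are to be read beside these. Against NCAC they were 4, and 7 (median-ratio), 12 (weights), 28 (covariate), 11 (without week 2), 2 (without week 6), 1 (without the urothelial libraries) and 0 (without week 8). At 8 weeks against mock they were 3, and 6 (median-ratio, 1 fit), 7 (mitochondrially encoded genes left out, weights), 1 (libraries over 2500 TPM fibroblast markers left out) and 0 (no filter, urothelial, block, covariate). Against NCAC at 8 weeks they were 1, and 3 (1 fit), 17 (weights) and 0 (no filter, urothelial, block, covariate). At 6 weeks against NCAC they were 1, and 2 (median-ratio, block, covariate), 12 (weights) and 0 (no filter, urothelial). For CAC at 8 against 2 weeks they were 1, and 8 (1 fit), 22 (weights) and 0 (pseudocount 5, no filter, urothelial, block, fibroblast libraries out, covariate). Where 0 were called, library weights gave 1, 21, 4, 4 and 7 for NCAC against mock at 2 weeks, CAC against mock at 6, NCAC against mock at 6, mock at 8 against 2 weeks and the CAC effect at 8 against 2 weeks, and the covariate gave 13 for CAC against mock at 6 weeks. All genes called in these fits were 230, 2758, 1078, 355 and 777 with weights, and 2005 with the covariate. Weights called 3307 and 3061 genes against NCAC at 6 and 8 weeks and 2241 for CAC at 8 against 2 weeks. Over all weeks against NCAC the counts were 3132 (median-ratio), 3525 (weights) and 5745 (covariate). Against mock at 8 weeks they were 1452 (median-ratio), 986 (1 fit), 2072 (mitochondrially encoded genes left out) and 1462 (weights). With 1 library left out the pathway genes called ran from 0 to 7 and 0 to 4 against NCAC at 6 and 8 weeks. They ran from 0 to 4 against mock at 8 weeks, 2 to 7 over all weeks in both, and 0 to 2 for CAC at 8 against 2 weeks.

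Replicate numbers were not used as pairs in the main tests. Of 60 same-numbered pairs 20 correlated above 0.1 (-0.65 to 0.57), with 0 of 12 group pairs above it throughout. Pairs of different numbers were not compared, so this does not settle whether same-numbered libraries belong together. With the block Dnajb9 was 0.36 (limma adjusted p = 0.0738) against mock and 0.42 (0.0677) against NCAC. Depth is unknown, so what it limits cannot be given.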
